A study of Mus musculus with 40 samples.

Results

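The comparison described here set whole embryos of the *Aey69* mouse line at embryonic day 9.5 (E9.5) against whole embryos of wild-type littermates. *Aey69* came from an N-ethyl-N-nitrosourea (ENU) mutagenesis screen and has small eyes that lack a lens. The line carries a missense mutation in *Hist2h3c1*, now named *H3c14*, a histone H3 gene on chromosome 3. All samples were of strain C3HeB/FeJ and untreated, and the labels do not say whether the mutants of the arrays were heterozygous or homozygous. By genotype and stage, 7 of the 36 arrays kept by the authors belonged to this comparison, 4 mutants (mutants 2, 3, 4 and 5) and 3 controls (controls 2, 3 and 5), each labelled a biological replicate. The numbers are those of the deposited signal columns, and 1 more control array of E9.5, which the authors excluded, was left out. Expression was measured on Illumina bead arrays, and every value below is a log2 signal after an offset and quantile normalization, or a difference of such signals (mutant minus control). The offset makes a log2 difference understate the change of dim probes.

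At E9.5 the mouse embryo has a closing neural tube, a beating heart and optic vesicles that are just meeting the surface ectoderm, and lens fibers have not formed. Nucleated red cells made in the yolk sac fill its vessels. The embryo lies inside the visceral yolk sac, whose endoderm secretes apolipoproteins, transthyretin and transferrin much as the liver does later. Outside the yolk sac lie the trophoblast, which makes placental hormones of the prolactin family, and the maternal decidua. Replication-dependent histone genes, *H3c14* among them, are transcribed in S phase and stand in clusters of near-identical copies.

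The E9.5 arrays detected between 44.6% and 51.0% of their probes, and the range over the 36 arrays was 44.6% to 54.9%. After a filter on detection, 12901 probes remained, which covered 9127 named genes. Of the markers of the embryo itself, the embryonic globins *Hba-x* and *Hbb-bh1*, the heart genes *Myl7* and *Myh6*, the somite genes *Meox1* and *Tcf15*, the tail bud gene *Cdx2* and the endothelial genes *Pecam1* and *Cdh5* were detected on all 7 arrays. *Kdr*, also endothelial, passed the filter through the mutants alone. The probes of *Pax6* and *Pax3* were detected on 0 of 7. The macrophage markers *Ptprc* and *Tyrobp*, the spongiotrophoblast marker *Tpbpa* and the lens fiber gene *Cryaa* were likewise not above background on any array. *Xist* of the X chromosome and *Eif2s3y*, *Kdm5d* and *Uty* of the Y chromosome were all detected on 7 of 7 arrays. The sources used here do not say how many embryos went into a sample.

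The arrays did not fall apart by genotype. Mutant 3 correlated with control 3 at r = 0.991 and with control 5 at r = 0.989 over the detected probes, and with the other mutants at 0.955 to 0.968. Mutants 2 and 5 correlated with each other at r = 0.991. Mutant 4 had the lowest mean correlation with the other arrays (0.953), the lowest share of detected probes (44.6%) and the lowest weight in a fit with array weights (0.403). Control 2 was next, with a mean correlation of 0.956 and a weight of 0.535.

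**Figure D1:**
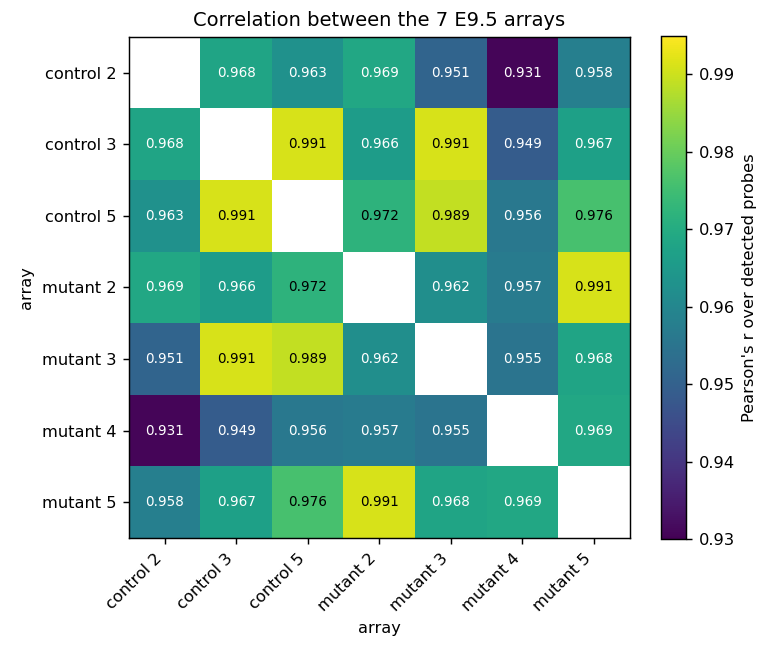
Pearson's r between each pair of the 7 E9.5 arrays over the detected probes, by colour and number. Mutant 3 had its highest r with controls 3 and 5 (0.991 and 0.989), mutants 2 and 5 matched each other (0.991), and the lowest r was that of mutant 4 with control 2 (0.931).

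No gene passed a false discovery rate of 10% in limma over all probes, and the smallest adjusted p was 0.21. At an unadjusted limma p under 0.05, with any probe counting, 711 genes had higher and 556 had lower signals in the mutants. With 1 probe a gene these were 577 (6.32%) and 378 (4.14%) of 9127 genes, which are the background shares for the gene lists below. The mutant and control values of 12.9% of the detected probes did not overlap, and with 1 probe a gene this held for 8.0% of genes in the higher and 4.94% in the lower direction. The median log2 difference over all detected genes was 0.02. The count at the false discovery rate was 0 in 6 of the 7 fits that left out 1 array each and 64 without mutant 3. With the replicate number of the sample titles as a block it was 1, *Erdr1*, at an adjusted limma p of 0.0097.

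**Figure D2:**
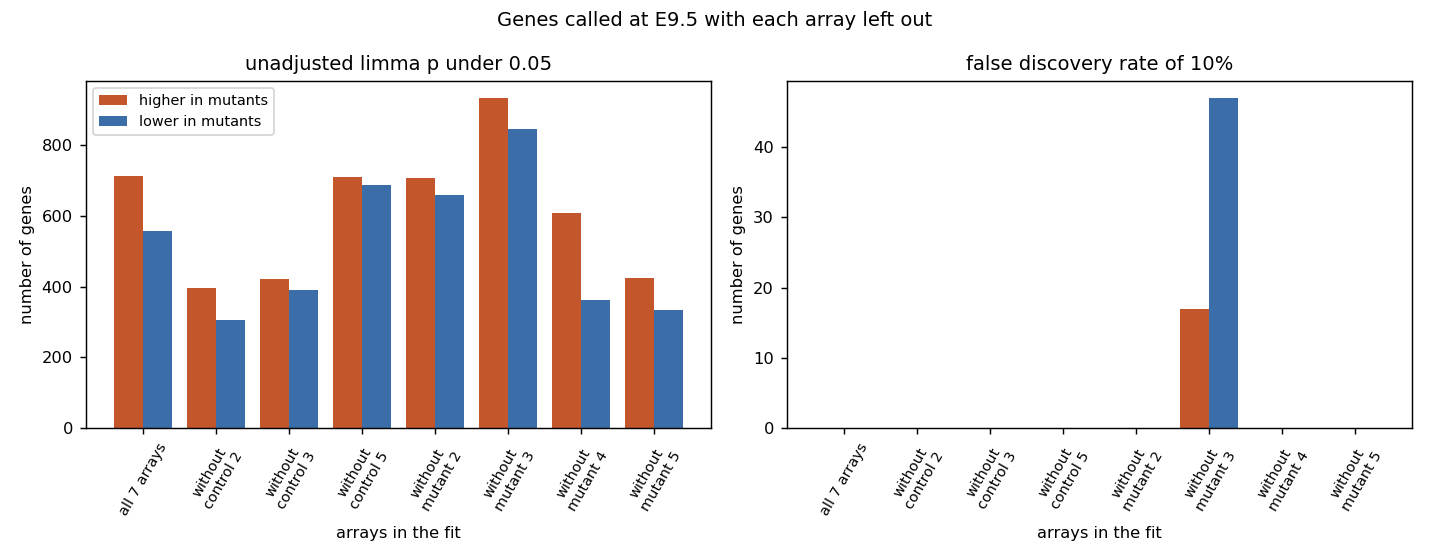
Number of genes called in limma at an unadjusted p under 0.05 (left) and at a false discovery rate of 10% (right), with all 7 arrays and with each array left out. Bars show genes higher and lower in the mutants. Only the fit without mutant 3 gave calls at the false discovery rate (17 higher and 47 lower), while the unadjusted counts lay between 396 and 933 for higher and between 306 and 845 for lower genes.

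The gene with the smallest p was *Prl8a2*, which encodes a prolactin-like hormone of the maternal decidua. Its log2 signal was 8.06, 8.15 and 7.3 in controls 2, 3 and 5 and 4.9, 6.02, 5.72 and 5.04 in mutants 2 to 5. All 4 mutants thus lay below all 3 controls, and the probe was detected on 3 of 3 control and 2 of 4 mutant arrays. The mutants averaged 5.42 ± 0.53 (SD, n = 4) and the controls 7.84 ± 0.46 (SD, n = 3), a log2 difference of -2.42 (SE 0.30) with an adjusted limma p of 0.21. Over the other settings that adjusted p ran from 0.00065 in one model of all 10 groups to 0.87 with the excluded control, and the log2 difference with 1 array left out stayed between -2.68 and -2.24.

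Prolactin family genes, which trophoblast and decidua express, had probes for 22 members, of which 5 passed the detection filter. *Prl8a2* and *Prl4a1* passed it through the controls alone, which biases a count over the 5 toward lower values, so their values are given as a description only. At an unadjusted p under 0.05, 4 of the 5 were lower (4.14% of all genes), 3 of them among the 3 that passed in both genotypes, and the median log2 difference was -2.38. The mean log2 signal of the 5 was 10.05 in control 2, 7.36 in control 3 and 6.65 in control 5, and 4.72, 6.42, 6.38 and 5.8 in mutants 2 to 5. Control 2 was the highest array in 4 of the 5 genes, against 18.7% of all detected genes. With control 2 left out, 2 of the 5 were lower, with a median of -1.15. *Prl3d3*, a placental lactogen gene of trophoblast giant cells, had 8.99, 6.59 and 6.09 in the controls and 4.55, 5.84, 5.82 and 5.24 in the mutants, with no overlap (log2 difference -1.86, SE 0.61, adjusted limma p 0.64). *Prl2c3* and *Prl2c4*, proliferin genes that are closely related copies and may share probe signal, had log2 differences of -2.38 and -2.47. Their values overlapped, since mutant 4 (7.84 and 7.35) lay above control 5 (7.41 and 7.1). *Prl4a1* had 10.42 in control 2 and 4.61 to 6.73 on the other 6 arrays.

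Trophoblast and placenta genes were detected for 7 of 14 members on the array, and all 7 had negative log2 differences, with a median of -1.15. At an unadjusted p under 0.05, 4 were lower, against 4.14% of all genes, and 0 were higher. However, *Rhox6* and *Hand1* of these passed the detection filter through the controls alone, and 2 were lower among the 5 that passed in both genotypes. The count was 2 without mutant 2, mutant 5 or control 2, 7 without mutant 3, and 1 without both mutant 4 and control 2. *Rhox9*, a homeobox gene of the X-linked *Rhox* cluster, had 9.14, 6.82 and 6.25 in the controls and 4.73, 6.2, 5.82 and 5.38 in the mutants. Control 2 was far the highest here, and the lowest control and the highest mutant were 6.25 and 6.2. *Rhox6* had a log2 difference of -1.48 (SE 0.62). *Plac8* had 9.82, 8.5 and 8.55 in the controls and 7.43, 8.56, 7.45 and 7.46 in the mutants, so that mutant 3 overlapped the controls. *Hand1*, a basic helix-loop-helix factor of trophoblast giant cells and heart, had a log2 difference of -0.81 (SE 0.29). Mutant 3 was the highest of the mutants in 7 of these 7 genes, against 22.9% of all detected genes. Fewer cells of a type and less RNA per cell cannot be told apart in bulk samples, here or in the lists below.

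Lower values without overlap also came from *Erdr1* and *Lgals3*. *Erdr1*, named as a regulator of erythroid differentiation and placed on the X chromosome by the annotation, had 9.02, 8.1 and 8.22 in the controls and 6.44, 4.96, 5.2 and 6.48 in the mutants. Its log2 difference was -2.68 (SE 0.40, adjusted limma p 0.39), and it ran between -2.92 and -2.39 with 1 array left out. The probe of *Erdr1* passed the detection filter through the controls alone. *Lgals3*, which encodes the sugar-binding protein galectin-3, had 8.87, 7.72 and 7.01 in the controls and 5.96, 7.0, 6.62 and 5.88 in the mutants. Mutant 3 and control 5 were nearly equal for *Lgals3*, and its log2 difference was -1.5 (SE 0.42, adjusted limma p 0.64). *Fos*, an immediate early transcription factor gene, was detected on 3 of 3 control and 0 of 4 mutant arrays and was at least 1.13-fold higher in the controls, where each mutant array counts at the higher of its own signal and the lowest signal of its detected probes.

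**Figure D3:**
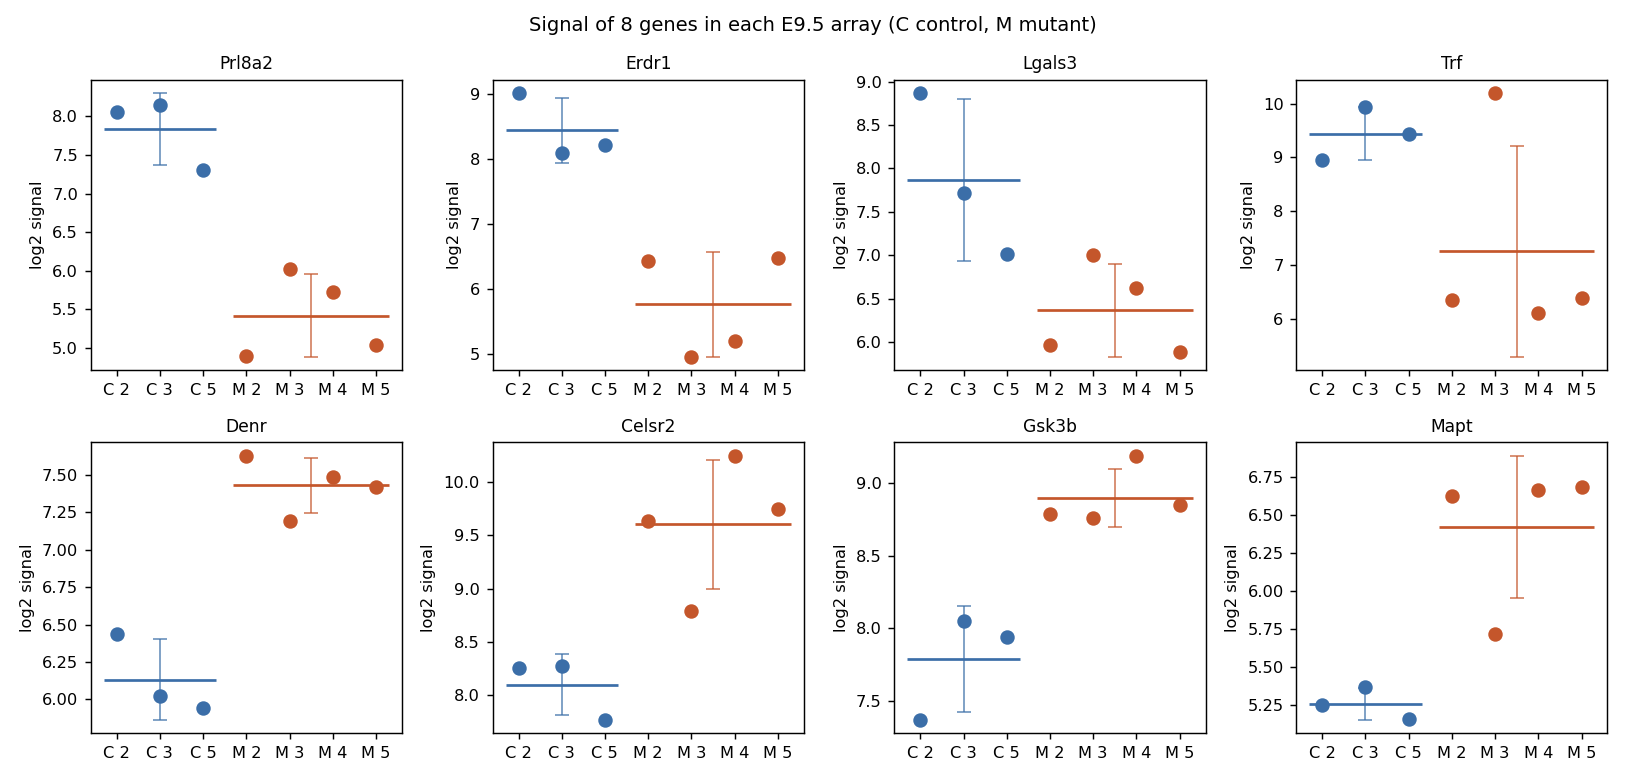
Log2 signal of 8 genes on each E9.5 array, with controls 2, 3 and 5 (C, blue) and mutants 2 to 5 (M, red); lines are group means and bars 1 SD. *Prl8a2*, *Erdr1* and *Lgals3* were lower and *Denr*, *Celsr2*, *Gsk3b* and *Mapt* higher in all 4 mutants than in all 3 controls, and for *Trf* mutant 3 (10.2) was above every control.

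Genes of the yolk sac endoderm had lower mean signals in mutants 2, 4 and 5 than in all 3 controls, while mutant 3 stood at the level of controls 3 and 5. Their mean log2 signal over the 17 detected members was 8.52, 10.37 and 9.71 in controls 2, 3 and 5 and 6.6, 10.6, 7.24 and 6.86 in mutants 2 to 5. Mutant 3 was the highest mutant in 17 of 17 genes, and over all detected genes it was the highest mutant in 22.9%. All 17 had negative log2 differences with a median of -1.83. At an unadjusted p under 0.05, 4 were lower (*Apoa1*, *Apoa2*, *Ttr* and *Trf*), against 4.14% of all genes, and 0 were higher. Mutant and control values did not separate in any of the 17.

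*Apoa2*, an apolipoprotein of high density lipoprotein, had 11.11, 12.56 and 12.11 in the controls and 8.41, 12.92, 9.34 and 8.34 in the mutants. The mutants spread over more than the log2 difference of -2.17 (SE 0.96). *Trf*, which encodes the iron carrier transferrin, had 8.95, 9.94 and 9.44 in the controls and 6.34, 10.2, 6.1 and 6.38 in the mutants, a log2 difference of -2.19 (SE 0.86). *Afp*, the fetal plasma protein alpha-fetoprotein, had 7.57, 9.12 and 8.33 in the controls and 5.82, 9.4, 4.13 and 6.17 in the mutants. In each of these genes mutant 3 was among the highest arrays and control 2 was the lowest control. *Amn*, which encodes the endocytic receptor subunit amnionless, *Fga*, a fibrinogen chain gene, and *Slc2a2*, a glucose transporter gene, had log2 differences of -1.88, -2.13 and -1.93, again with mutant 3 as the highest mutant and control 2 as the lowest control. The count of 4 lower genes depended on the fit. It was 0 without mutant 2, 4 or 5, without control 3 or 5, and without both mutant 4 and control 2, and it was 7 without control 2 and 17 without mutant 3. With the replicate number as a block it was 16 by sample titles and 15 by columns. *Rbp4*, *Slc2a2* and *Apoc2* of the 17 passed the detection filter through the controls alone.

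The fit without mutant 3 called most genes of the 7 such fits and leaves out the array with the highest values of these genes among the mutants. It had 47 lower and 17 higher genes at the false discovery rate, 3 of them without a gene name. With 1 probe a gene, 0.442% of genes were lower and 0.151% higher, and 8 of the 17 yolk sac endoderm genes were among the lower ones. *Trf* had a log2 difference of -3.17 (SE 0.25, adjusted limma p 0.011) in that fit, *Spp2*, a secreted phosphoprotein gene, had -3.30 (SE 0.35, adjusted limma p 0.039) and *Slc2a2* had -2.97 (SE 0.32, adjusted limma p 0.039). The same fit had *Apoa2* at -3.23, *Fga* at -3.21, *Gjb2*, a connexin gene, at -2.35, *Gtsf1l* at -1.35 and *Prl8a2* at -2.62. Membrane transporter genes *Slc13a4*, *Slc39a4*, *Slc23a3*, *Slc7a9* and *Slc7a8*, named after their values were seen, were among the lower genes too. Since these genes were called by leaving out mutant 3, a mutant 3 apart from the other mutants is built into the list. As a description, mutant 3 was at or above the lowest control in 45 of the 47 lower genes, and it was above every control in 10 of the 17 higher genes.

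**Figure D4:**
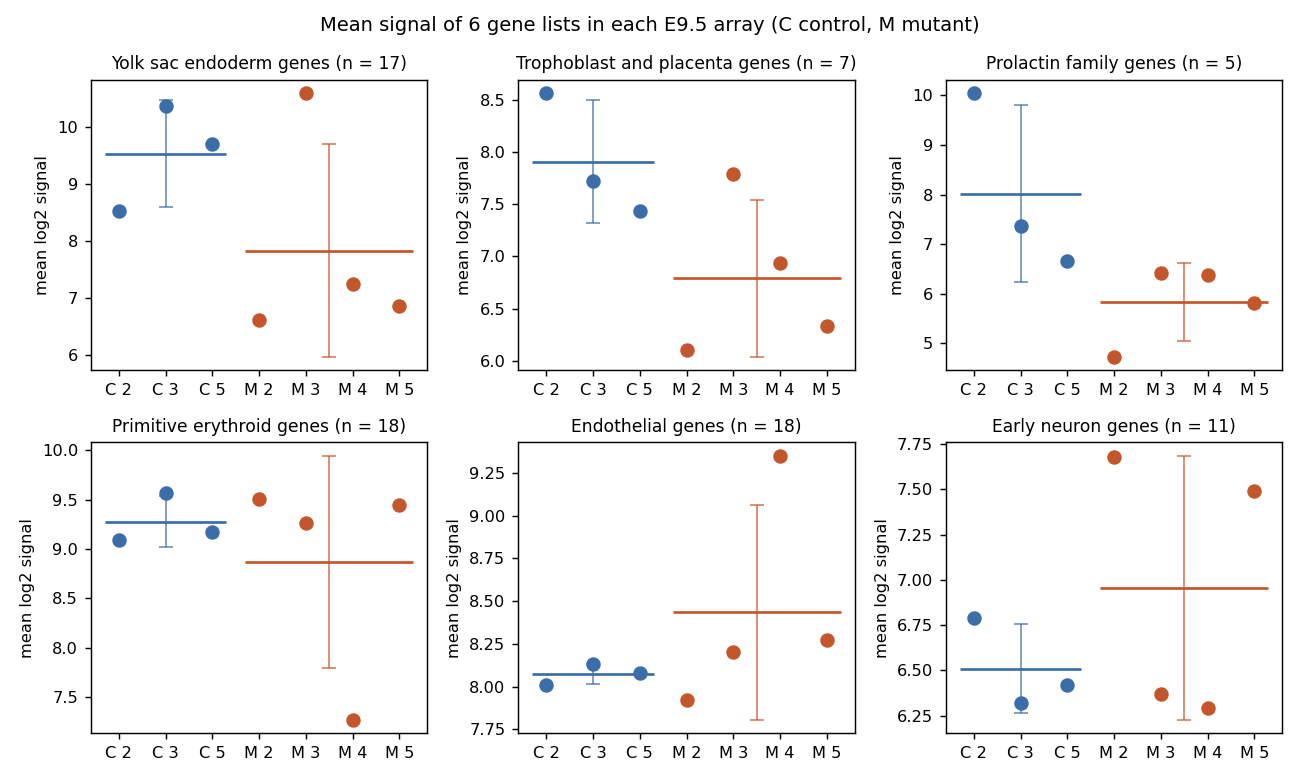
Mean log2 signal of 6 gene lists on each E9.5 array, over the detected members (n in each title), with controls (C, blue) and mutants (M, red); lines are group means and bars 1 SD. Mutant 3 was at the level of controls 3 and 5 for yolk sac endoderm genes (10.6), mutant 4 stood apart for erythroid (7.27) and endothelial genes (9.35), and mutants 2 and 5 had the highest values of early neuron genes (7.68 and 7.49).

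Primitive erythroid genes showed 1 low array and little else. Their mean log2 signal over 18 detected genes was 7.27 in mutant 4, 9.26 to 9.51 in the other mutants and 9.09 to 9.57 in the controls. *Hba-x*, an embryonic alpha-like globin, had 10.66 in mutant 4 and 13.65 to 13.97 on the other 6 arrays. *Alas2*, the first enzyme of heme synthesis in red cells, had 6.91 in mutant 4 and 9.76 to 11.09 elsewhere. Mutant 4 was the lowest of the 7 arrays in 16 of the 18 genes, against 26.6% of all detected genes. At an unadjusted p under 0.05, 0 of the 18 were higher and 0 lower; the median log2 difference was -0.42 and became 0.10 without mutant 4.

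Endothelial genes were highest in the same array. Mutant 4 was above the other 6 arrays in 18 of 18 detected genes, against 28.2% of all detected genes, with a mean log2 signal of 9.35 beside 7.92 to 8.27 in the other mutants and 8.01 to 8.13 in the controls. *Cdh5*, the endothelial cadherin, had 8.66 in mutant 4 and 6.94 to 7.26 on the other arrays. *Eng*, a co-receptor for transforming growth factor beta, was higher without overlap, at 7.12, 7.44 and 7.49 in the controls and 7.76, 7.61, 9.13 and 8.04 in the mutants. With *Robo4* it made 2 of 18 genes that were higher at an unadjusted p under 0.05, against 6.32% of all genes. With arrays scaled to the same median, 0 were higher and 1 lower. With quantile normalization the list's median log2 difference was 0.41. Without mutant 4 the median was 0.11 with 1 higher gene, without mutant 2 there were 5, without control 5 there was 1, and without mutant 5, control 2 or control 3 there were 0. Macrophage and blood leukocyte genes had 4 of 12 members detected, and *Laptm5* alone of them was higher (log2 difference 0.61, SE 0.23).

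Early neuron genes had higher values in mutants 2 and 5. The mean log2 signal of 11 detected members was 7.68 and 7.49 in these, 6.37 and 6.29 in mutants 3 and 4, and 6.79, 6.32 and 6.42 in the controls. Mutants 2 and 5 were the highest arrays in 9 of the 11 genes, against 9.77% of all detected genes. *Dcx*, which encodes the microtubule protein doublecortin of migrating neurons, had 7.6 and 7.5 in mutants 2 and 5 and 5.2 to 6.01 on the other arrays. *Elavl3*, an RNA-binding protein gene of young neurons, had 7.02 and 6.75 in these and 5.2 to 5.9 elsewhere.

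At an unadjusted p under 0.05, 3 of the 11 early neuron genes were higher (6.32% of all genes) and 0 lower, and the median log2 difference was 0.39. The count was 1 without mutant 5, control 3 or control 5, and the median was 0.15 without mutant 2 and 0.69 without mutant 4. The count was 6 with array weights. With the replicate number as a block it was 2 by sample titles and 9 by columns, with medians of 0.17 and 0.69. *Mapt*, which encodes the microtubule protein tau, was 5.25, 5.37 and 5.16 in the controls and 6.62, 5.72, 6.66 and 6.68 in the mutants. These groups did not overlap, and the log2 difference was 1.16 (SE 0.24, adjusted limma p 0.64). *Gap43*, a growth cone protein gene, had a log2 difference of 0.45 (SE 0.17) without overlap, and *Crmp1*, which encodes a mediator of semaphorin signals, had 0.49 (SE 0.22). Among neural progenitor genes 4 of 13 were detected, with a median of 0.32. Of these *Nes*, the intermediate filament nestin, was higher at 10.43, 9.62, 9.81 and 10.39 in mutants 2 to 5 against 9.46, 9.42 and 9.55 in the controls. *Sox2* had a log2 difference of -0.25 (SE 0.52).

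Among single genes with higher signals, *Denr* had the smallest p. It encodes a factor that helps ribosomes to be recycled and to start again after short upstream reading frames. Its log2 signal was 6.44, 6.02 and 5.94 in the controls and 7.63, 7.19, 7.49 and 7.42 in the mutants. The log2 difference was 1.30 (SE 0.18, adjusted limma p 0.23), between 1.21 and 1.45 with 1 array left out. *Celsr2*, a cadherin of planar cell polarity, had the largest difference of the higher genes without overlap, with 8.26, 8.27 and 7.77 in the controls and 9.64, 8.79, 10.25 and 9.75 in the mutants (log2 difference 1.5, SE 0.30, adjusted limma p 0.64). The other genes that the rule named here were *Zxda*, *Rhbdl2*, *Zfp148*, *Hoxb4*, *Tcof1*, *Map1b*, *Pdpk1* and *Vezt*, with log2 differences from 1.19 to 1.37. *Map1b* encodes a microtubule protein of growing axons, *Vezt* a protein of adherens junctions and *Zfp148* a zinc finger transcription factor. *Vezt* had 6.8, 6.95 and 6.98 in the controls and 7.79, 7.77, 8.93 and 7.9 in the mutants.

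Of the lower genes with the largest differences, *Acta2*, *Kpna2*, *Sec22a* and *Bmpr1a* were also without overlap, at -1.12, -1.07, -1.07 and -1.02. For *Acta2*, the smooth muscle actin, a brighter probe had -0.36 (SE 0.17) with overlap. *Bmpr1a*, a receptor of bone morphogenetic proteins, likewise had a brighter probe with -0.15 (SE 0.27). The probes of both genes thus gave unlike values.

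A list of genes that the study showed for E9.5 was picked from these same samples, so that its direction here is not independent of that choice. The list had 16 genes with a detected named probe out of 20, of which 6 were higher and 4 lower at an unadjusted p under 0.05. Of all genes, 6.32% were higher and 4.14% lower. The higher ones were *Celsr2*, *Zfp148*, *Pdpk1*, *Mapt*, *Khsrp* and *Gsk3b*, all without overlap. *Gsk3b*, the kinase that marks beta-catenin for destruction, had 7.37, 8.05 and 7.94 in the controls and 8.79, 8.76, 9.19 and 8.85 in the mutants (log2 difference 1.11, SE 0.20, adjusted limma p 0.64). *Pdpk1*, the kinase that activates AKT, had 6.17, 6.49 and 5.61 in the controls and 6.62, 7.34, 8.0 and 7.16 in the mutants. *Khsrp*, an RNA-binding protein that promotes mRNA decay, had a log2 difference of 1.15 (SE 0.30). The lower ones were *Erdr1*, *Trf*, *Lgals3* and *Plac8*. Of these *Erdr1* passed the detection filter through the controls alone, and 3 were lower among the 15 genes that passed in both genotypes. *Actg2*, the enteric actin, had 10.94 in control 5 and 5.12 to 6.56 on the other 6 arrays. *Brd2* had a log2 difference of 0.13 (SE 0.19) and *Rsrc1* of -0.35 (SE 0.19).

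Counts of signaling pathway genes at the unadjusted threshold stand beside 6.32% (higher) and 4.14% (lower) of all genes. The pathways have few members, and their counts were not compared with each other. Of 16 detected genes of the bone morphogenetic protein (BMP) pathway, which acts in lens induction, 0 were higher and 0 lower at an unadjusted p under 0.05, with a median log2 difference of 0.02, by the brightest probe of each gene. The ligand *Bmp4* had 9.65, 9.94 and 9.94 in the controls and 9.83, 10.17, 11.17 and 10.32 in the mutants, of which mutant 4 was the highest (log2 difference 0.53, SE 0.28). The ligand *Bmp7* had a log2 difference of -0.04 (SE 0.21). Wnt pathway genes had 3 higher and 2 lower of 25, with a median of 0.06. Of the lower ones *Dkk1* passed the detection filter through the controls alone, and 1 was lower among the 24 that passed in both genotypes. The receptor *Fzd2* was higher without overlap, at 10.16, 10.31 and 10.36 in the controls and 10.88, 10.8, 11.53 and 11.09 in the mutants. The ligand *Wnt5a* was lower, with 9.52, 9.06 and 8.8 in the controls and 8.7, 8.53, 8.24 and 8.6 in the mutants. Of 14 Notch pathway genes 2 were higher and 1 lower, with a median of 0.22. The receptor *Notch1* was 7.29, 7.33 and 7.42 in the controls and 8.37, 7.63, 8.14 and 8.28 in the mutants, and the effector *Hey2* had a log2 difference of -0.46 (SE 0.17).

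The signals of the mutated gene itself overlapped between the groups. The brighter of the 2 probes named *H3c14* had 10.29, 9.76 and 9.93 in the controls and lay between 9.86 and 10.27 in the 4 mutants. The log2 difference was 0.02 (SE 0.18), and that of the dimmer probe was 0.16 (SE 0.41). A missense mutation need not change the level of the transcript, so this level does not check the genotype labels. By PCR, the paper reported lower *Hist2h3c1* in *Aey69* embryos at later stages than E9.5. Of 11 detected H3 genes 0 were higher and 0 lower at an unadjusted p under 0.05, and the median log2 difference was 0.01. The replacement gene *H3f3b* had 0.09 (SE 0.13) and the centromere histone gene *Cenpa* had -0.07 (SE 0.16). H3 genes of the clusters are nearly identical, and their probes may share signal.

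The other replication-dependent histone genes included 7 of 31 that were higher at an unadjusted p under 0.05, against 6.32% of all genes, and 0 that were lower. All 7 were H2A genes (*H2ac7*, *H2ac10*, *H2ac11*, *H2ac12*, *H2ac20*, *H2ac21* and *H2ac22*), close copies whose probes may share signal and which therefore do not count as independent genes. *H2ac21* had 7.88, 7.85 and 7.3 in the controls and 8.2, 8.82, 9.21 and 8.89 in the mutants (log2 difference 1.10, SE 0.25, adjusted limma p 0.64). *H2ac22* had 10.49, 10.66 and 10.36 in the controls and 11.03, 11.46, 12.1 and 11.53 in the mutants (1.02, SE 0.23, adjusted limma p 0.64). *H2ac10* had 11.54, 11.68 and 11.2 in the controls and between 11.92 and 12.85 in the mutants, above all of these. In all 3 genes mutant 4 was the highest and mutant 2 the lowest mutant. The list's median was 0.21, and mutant 4 was the highest of the 7 arrays in 19 of the 31 genes, against 28.2% of all detected genes. With mutant 4 and control 2 left out together, the median was -0.16, with 8 genes higher and 2 lower. Without mutant 3 or control 5 there were 4 higher genes, and the median was 0.00 without mutant 4 and 0.01 without control 2.

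The start regions of these H2A genes are shown because the genes had higher signals together and because *H2ac20* and *H2ac21* stand in the chromosome 3 cluster of *H3c14*. The 120 bases before the RefSeq start (GRCm38.p6) are printed 5′ to 3′ along the gene, with capitals for the motifs TATAAA and CCAAT on either strand (CCAAT reads ATTGG on the other), which do not overlap each other here. *H2ac21* lies on the plus strand (chr3:96219765-96219884), *H2ac20* on the minus strand (chr3:96220881-96221000), *H2ac22* on the minus strand (chr13:21787249-21787368), *H2ac10* on the plus strand (chr13:23533755-23533874) and *H3c14* on the plus strand (chr3:96246565-96246684).
H2ac21: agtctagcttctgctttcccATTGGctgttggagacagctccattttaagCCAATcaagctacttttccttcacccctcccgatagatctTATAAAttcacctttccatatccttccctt
H2ac20: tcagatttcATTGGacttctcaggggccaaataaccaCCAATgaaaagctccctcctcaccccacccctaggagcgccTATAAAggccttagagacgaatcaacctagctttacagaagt
H2ac22: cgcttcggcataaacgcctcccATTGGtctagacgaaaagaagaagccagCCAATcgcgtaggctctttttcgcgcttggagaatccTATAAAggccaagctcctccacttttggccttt
H2ac10: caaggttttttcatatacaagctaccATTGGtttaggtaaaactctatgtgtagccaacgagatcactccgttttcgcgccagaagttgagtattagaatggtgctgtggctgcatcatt
H3c14: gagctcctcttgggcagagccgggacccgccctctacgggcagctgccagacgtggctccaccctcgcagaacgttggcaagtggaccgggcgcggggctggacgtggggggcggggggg
CCAAT was found on one strand or the other in 7 of the 7 H2A genes and in 21.3% of 32851 RefSeq start regions of the same length. TATAAA was found in 3 of the 7 and in 6.34% of all. The 7 genes are close copies picked for their signals on these arrays, so these counts are a description only. The share among the histone genes that were not called is not given, and a link between motif and signal was not tested. Neither set of letters was found in the window of *H3c14*, which says only that they are not in these bases.

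Within 5 Mb of *H3c14* on chromosome 3, 75 of 151 genes with a probe were detected, with 6 higher (6.32% of all genes) and 2 lower (4.14%) at an unadjusted p under 0.05 and a median log2 difference of 0.09. The higher ones included *H2ac20*, *H2ac21*, *Pip5k1a*, a lipid kinase gene, and *Wars2*, which encodes a mitochondrial tRNA synthetase. *Wars2* had 5.99, 6.11 and 6.0 in the controls and 6.81, 6.58, 7.45 and 6.75 in the mutants, without overlap.

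**Figure D5:**
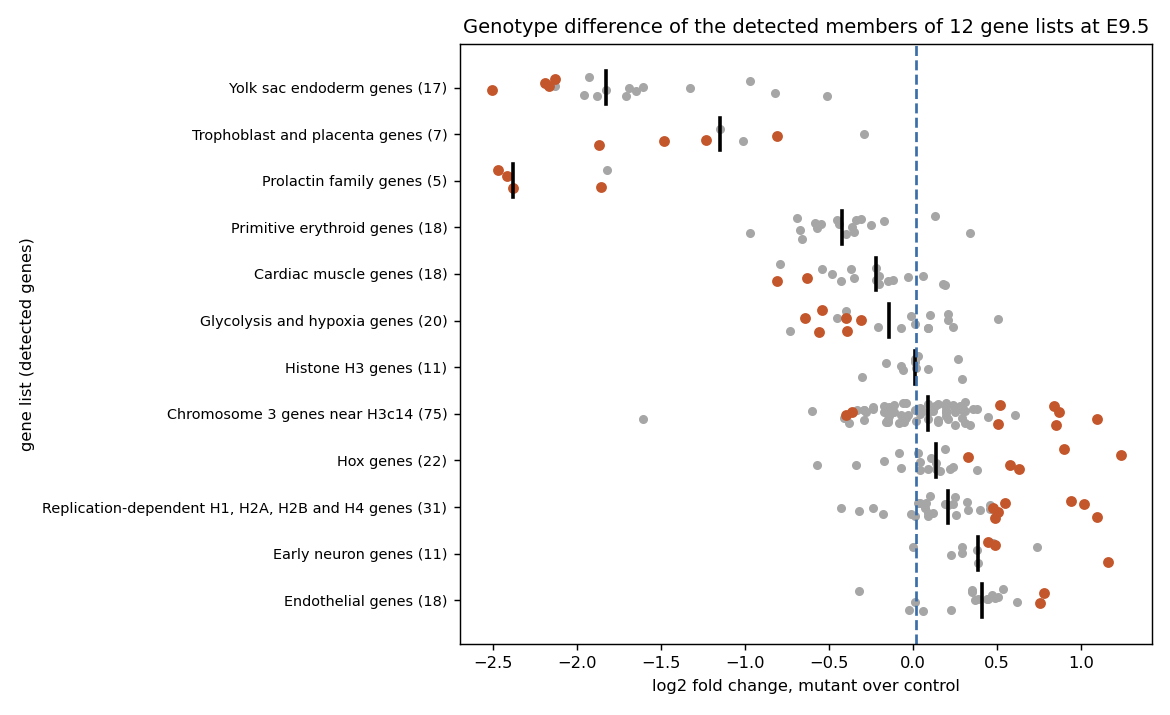
Log2 difference (mutant minus control) of each detected member of 12 gene lists at E9.5, with the number of members in parentheses. Red points had an unadjusted limma p under 0.05, black bars are list medians, and the dashed line is the median of all detected genes (0.02). Medians were lowest for prolactin family (-2.38) and yolk sac endoderm genes (-1.83) and highest for endothelial genes (0.41).

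*Hox* genes, which set position along the body axis, had 5 of 22 detected members higher and 0 lower at an unadjusted p under 0.05. The shares of all genes were 6.32% and 4.14%, and the list's median log2 difference was 0.14. Without mutant 4 there were 3 higher and the median was 0.07, without mutant 5 or control 5 there were 3, and without control 3 there were 2 higher and 1 lower. *Hoxb4* had 7.23, 7.26 and 6.51 in the controls and 7.84, 7.61, 9.19 and 8.3 in the mutants, and *Hoxa7* had 7.71 to 8.14 in the controls and 8.32 to 9.76 in the mutants. *Hoxd4* and *Hoxa13* were also without overlap. In all, 6 of the 22 were higher and 1 lower without overlap, against 8.0% and 4.94% of all genes. With arrays scaled to the same median, 2 were higher and 3 lower at an unadjusted p under 0.05. One model of all 10 groups had 2 higher. Mutant 4 was the highest array in 15 of the 22 genes, against 28.2% of all detected genes. Glycolysis and hypoxia genes had 6 of 20 lower, against 4.14% of all genes, and 0 higher, with a median of -0.14. There were 3 lower without control 2 or without control 3, and 2 lower and 1 higher without both mutant 4 and control 2. The 6 were *Slc2a1*, the main glucose transporter gene of the embryo, *Ndrg1*, *Pfkp*, *Pgk1*, *Pdk1* and *Ldha*. Of these *Pgk1* passed the detection filter through the controls alone, and 5 were lower among the 18 genes that passed in both genotypes. *Slc2a1* had 12.28, 12.63 and 12.4 in the controls and 11.64, 12.21, 11.86 and 11.8 in the mutants, and *Ndrg1*, a stress-responsive gene, had 7.91, 7.7 and 7.58 against 6.81, 7.38, 7.2 and 6.98. In both genes mutant 2 was the lowest and mutant 3 the highest mutant, and the groups did not overlap. Cardiac muscle genes had 2 of 18 lower (*Actc1* and *Hand1*), against 4.14% of all genes, and 0 higher, with a median of -0.22. *Hand1* passed the detection filter through the controls alone, and 1 gene was lower among the 17 that passed in both genotypes. There was 1 lower without control 3 and there were 0 without control 5. *Myl7*, the atrial myosin light chain, was 8.64 in mutant 4, 10.27 to 10.49 in the other mutants and 10.56 to 10.92 in the controls.

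The direction of some lists depended on how the arrays were scaled. With arrays brought to the same median instead of quantile normalization, the median over all detected probes moved to -0.33, and the medians of *Hox* genes (-0.26) and replication-dependent histones (-0.18) became negative, though above that shift. Those of early neuron (0.21) and endothelial genes (0.01) stayed above 0, and yolk sac endoderm (-2.21), trophoblast (-1.56) and prolactin family genes (-2.62) stayed far below the shift. The 20 genes with the largest differences in either direction all kept their sign. They were picked for differences larger than that shift, so this is no check of them.

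The nearest stage, embryo heads at E10.5 with 4 mutants and 4 controls, shares no samples with E9.5. The genotype difference changed between these stages in 2 of 13747 detected probes (0.0145%) at a false discovery rate of 10% in limma. For *Prl8a2* the E9.5 difference minus that of E10.5 was -2.90 (SE 0.46, adjusted limma p 0.014). At E10.5 the mutants had a mean of 5.27 ± 0.66 (SD, n = 4) and the controls of 4.78 ± 0.60 (SD, n = 4), and the probe was detected on 2 and 1 of 4 arrays. For *Lgals3* the change was -2.01 (SE 0.36, adjusted limma p 0.056), with a log2 difference of 0.51 at E10.5. In a fit of both stages alone, neither passed (adjusted limma p 0.80 and 0.86). Stage and tissue cannot be told apart here. *Denr* was higher in the mutant means at each later stage too, with log2 differences of 1.56, 1.18, 0.52 and 1.15 from E10.5 to E13.5. *Erdr1* had -2.16, -4.45, 0.96 and -2.52 at those stages.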

How the data were processed

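The authors hybridized total RNA of each sample to Illumina mouse bead arrays and deposited each probe's signal intensity, background-subtracted in GenomeStudio, beside its detection p-value. They also deposited a table of processed intensity values, used here as an alternative. Signals were raised by 22, so that none was below 1, and the 36 kept arrays were quantile-normalized before log2 was taken. E9.5 mutants and controls were compared in limma 3.58.1 (R 4.3.3, lmFit and eBayes) on their 7 arrays, with Benjamini-Hochberg adjustment over 25697 probes. A probe counted as detected if 3 or more mutants, or 2 or more controls, had a detection p below 0.05. Of the probes, 23978 carry 1 gene name and 1719 none, and 16582 of 16593 named genes were found in RefSeq (GRCm38.p6). A gene stands by its brightest detected probe unless any probe is said to count. The number of arrays limits the precision, and 0 signal columns were left unmapped.

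Named genes were *H3c14* and other H3 genes, those the study shows for E9.5, up to 10 per direction with the largest difference among probes at an unadjusted p under 0.05 without overlap, up to 10 with the smallest p in the leave-one-out fit that called most, and up to 3 first and 3 smallest-p members of 48 lists. Comparisons, members and lists were chosen with earlier results of these data known. The fits were tested on simulated data.

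Deviations from the group means of samples with the same number correlated at 0.503, 0.566 and 0.114 by sample titles and at 0.502, 0.564 and -0.00529 by the deposited columns. By titles every pair exceeded 0.1, so the block is given where it changed a call at the false discovery rate, and for the yolk sac endoderm and early neuron counts. The other list counts of the report moved by at most 2 genes with the block by titles. Mutant replicate 4 has no partner there and adds nothing to that fit, which used the authors' processed values.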

Additional observations from a re-analysis of the deposited data

Results flagged for a closer look

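Of 105 values checked among the 4 mutants (named genes, list means and the share of detected probes), 12 had 1 mutant far from the rest. Chance gives about 1 in 20 for values chosen without regard to the arrays, which does not apply here, since 6 of the 12 are genes named for their small p without mutant 3. The array was mutant 3 in 8 of the 12. It was high for the log2 signals of *Trf* (10.2, next mutant 6.38), *Spp2* (11.12, next 6.85), *Slc2a2* (8.79, next 4.92), *Fga* (9.9, next 5.78), *Plac8* (8.56, next 7.46) and *Gtsf1l* (5.76, next 4.13) and for the mean of yolk sac endoderm genes (10.6, next 7.24). It was low for *Mapt* (5.72, next 6.62). Mutant 4 was low for the means of primitive erythroid genes (7.27, next 9.26) and cardiac muscle genes (8.05, next 8.76) and for the share of detected probes (44.62%, next 48.58%), and high for *Vezt* (8.93, next 7.9). The part of tissue outside the embryo proper, or of any other cause, in these values was not tested.

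The genotype difference changed from E9.5 to E10.5 by limma's interaction test for *Prl8a2* (-2.90) and *Lgals3* (-2.01) in the model of all stages. In a fit of both stages alone neither passed (adjusted limma p 0.80 and 0.86). At E9.5 *Prl8a2* passed the detection filter through the controls alone. Whole embryos are set against heads here, so stage and tissue cannot be told apart.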

How the results depend on the processing

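Genes past the false discovery rate numbered 0 with all 7 arrays and 0 to 64 with 1 array left out (64 without mutant 3, 0 in the other 6 fits). They numbered 1 (*Prl8a2*) with median scaling, 3 with array weights, 9 in one model of 10 groups and 1 with the replicate block by sample titles. The block by column numbers and the other settings gave 0. The replicate block changed no other call at that rate. Genes at an unadjusted p under 0.05 numbered 1265 and ran from 701 to 1776 with 1 array left out (396 to 933 higher, 306 to 845 lower). They were 475 with the excluded control (229 higher, 247 lower), 1944 with array weights (908 lower) and 745 with mutant 4 and control 2 left out together, a setting chosen after seeing the data (262 lower). Median scaling gave 67 higher and 1653 lower, where quantile normalization gave 711 and 556. An offset larger by 50 gave 1084 higher. The share of probes without overlap was 12.9%, and it was 5.9% with the excluded control, 26.1% with both arrays left out and 14.9% to 26.5% with 1 left out, where fewer arrays raise it by construction. Genes whose difference changed from E9.5 to E10.5 numbered 2, and 0 with those stages alone and 4 with median scaling. The cause of these moves was otherwise not tested.

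List medians that moved by more than the spread between replicates were, with median scaling, *Hox* -0.26, cardiac -0.68, BMP -0.32, Wnt -0.40, Notch -0.15, H3 -0.44, other replication-dependent histones -0.18, glycolysis -0.47, the study's genes -0.71 and chromosome 3 neighbours -0.28. With the excluded control they were neural progenitor 1.04, BMP -0.07, Wnt 0.13, glycolysis -0.02 and chromosome 3 neighbours 0.03. With mutant 4 and control 2 left out they were BMP 0.07, Wnt -0.02, histones -0.16, glycolysis -0.09 and chromosome 3 neighbours 0.02. With cyclic loess they were BMP -0.03, glycolysis -0.08 and chromosome 3 neighbours 0.06. Array weights gave BMP 0.10 and Wnt -0.04, the larger offset gave chromosome 3 neighbours 0.05, and the replicate block by column numbers gave Wnt -0.03. With 1 array left out, medians ran from -2.97 to -1.25 (yolk sac endoderm), -1.51 to -0.80 (trophoblast), -2.72 to -1.15 (prolactin family), -0.70 to 0.10 (erythroid), 0.11 to 0.62 (endothelial), 0.15 to 0.69 (early neuron), 0.10 to 0.56 (neural progenitor), 0.07 to 0.18 (*Hox*), -0.09 to 0.07 (H3), 0.00 to 0.39 (other histones), -0.16 to -0.07 (glycolysis), -0.45 to -0.16 (cardiac), -0.03 to 0.10 (BMP), -0.03 to 0.10 (Wnt), 0.03 to 0.28 (Notch), 0.06 to 0.11 (chromosome 3) and -0.31 to -0.06 (the study's genes).

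The p-values measure the spread between these 7 samples, and a detection filter leaves genes near background, such as 17 of the 22 prolactin family genes, without a test of their level.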
